A study of Mus musculus with 3 samples.

Results

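The cells described here are otic epithelial cells of the mouse embryo that carry transcripts of at least 3 of 6 marker genes, Spp1, Adamts9, Aldh1a2, Lhx1, Irx1 and Abcg1. They came from single-cell RNA sequencing of otic vesicles, the epithelial sacs that become the inner ear, dissociated at embryonic day 10.5. The group labelled CD is 1 library of pooled vesicles heterozygous for Sox9Y440X (Sox9Y440X/+), and the group labelled WT is 2 libraries of pooled wild-type vesicles. Sox9 encodes a transcription factor of the otic placode and of cartilage, and Y440X places a stop codon in it. The vesicles were not sorted, so other cell types of the region were sequenced with the epithelium.

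The cells were chosen by their own transcripts. A barcode was kept if 1000 genes or more were detected and mitochondrial counts did not exceed 10%, and it counted as otic with at least 1 unique molecular identifier (UMI, a count of captured transcripts) of the epithelial gene Epcam. It also needed at least 2 UMIs in sum over the otic genes Fbxo2, Hmx2, Hmx3 and Pax2, and at most 1 over the mesenchymal genes Prrx1 and Twist1. Of 26130 cells kept, 8518 were otic, and 1678 of these had a UMI of at least 3 of the 6 markers. CD replicate 1 gave 564 of them, WT replicate 1 gave 543 and WT replicate 2 gave 571. The other 6840 otic cells, with fewer than 3 markers, are the cells they are set against.

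Depth and quality differed between the libraries, and WT replicate 1 was the deepest per cell. The median mitochondrial share of the marker-positive cells was 3.52% in CD replicate 1, 2.38% in WT replicate 1 and 3.37% in WT replicate 2. Each library held 157373393 to 202584468 deposited UMIs, and the median cell kept had 15508.5 to 20418.5. The marker-positive cells were deeper than the other otic cells, with medians of 26737 against 20756 UMIs in CD replicate 1, 31968 against 23428 in WT replicate 1 and 21981 against 17372.5 in WT replicate 2. Between 14 and 27 barcodes were shared by any pair of libraries. Cells called doublets made up 4.26%, 2.21% and 3.50% of the marker-positive cells in that order, and they were kept. Cells with at least 3 UMIs of neuronal genes numbered 59, 43 and 62 in the same order, against 8, 2 and 4 for endothelial and 0, 1 and 6 for macrophage genes.

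The 6 markers have unlike roles. Spp1 encodes osteopontin, a secreted phosphoprotein, and Adamts9 a secreted protease of the extracellular matrix. Irx1 and Lhx1 encode homeodomain transcription factors, and Abcg1 a membrane transporter of cholesterol. Aldh1a2 encodes the dehydrogenase that makes retinoic acid from retinaldehyde. Retinoic acid is a diffusible signal that patterns the otic vesicle along its anteroposterior axis: Rdh10 makes its precursor, the Aldh1a enzymes make the acid itself, nuclear RAR and RXR receptors read it, and the Cyp26 enzymes break it down. Otx1, Otx2, Gsc and Tbx1 are known as patterning genes of the posterior, lateral and ventral vesicle, while Gbx2, Msx2 and the targets of Wnt signalling are known from its dorsal side and the endolymphatic outgrowth.

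Cyp26a1, the retinoic acid-degrading gene, was among the genes highest in these cells, and its promoter is shown because it holds a paired half-site of the kind that retinoic acid receptors bind. The reference table of RefSeq promoters (build GRCm38.p6, 300 bases each, 250 before and 50 after the annotated start) was searched on both strands for 2 hexamers in the same direction, each being AGGTCA, its variant AGTTCA, the further form GGGTCA or else the form GGTTCA, separated by 5 bases of any kind. No other motif was searched, and 32 of 32851 promoters (0.0974%) held a match. Of 24 marker and retinoic acid pathway genes, 18 were found by symbol, with 33 promoters, and 2 of these promoters matched. The Cyp26a1 promoter lies at chr19:37697558-37697857 on the plus strand, and its match covers the bases 32 to 16 before the start. The match in the promoter of the receptor gene Rarb (chr14:16575427-16575726, minus strand) covers the bases 53 to 37 before its start. The capitals mark the 17 bases of the match, which reads on the reverse strand in Cyp26a1 and on the forward strand in Rarb.
Cyp26a1 promoter: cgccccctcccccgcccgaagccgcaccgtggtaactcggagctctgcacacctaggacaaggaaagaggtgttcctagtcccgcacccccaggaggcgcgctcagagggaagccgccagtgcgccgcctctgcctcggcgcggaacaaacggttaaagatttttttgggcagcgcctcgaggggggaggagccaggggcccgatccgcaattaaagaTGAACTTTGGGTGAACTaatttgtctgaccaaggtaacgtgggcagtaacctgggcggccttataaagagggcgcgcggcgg
Cyp26a1 match, reverse complement: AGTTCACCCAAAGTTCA
Rarb match: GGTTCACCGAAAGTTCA

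Most otic cells carried few of the markers, and the cells that met the rule were the upper end of a continuous distribution. Over the 8518 otic cells, 3154 had none of the 6 markers, 2284 had 1, 1402 had 2, 904 had 3, 503 had 4, 260 had 5 and 11 had all 6. Just outside the threshold, cells with 2 markers held Spp1 at 76.2, 60.3 and 51.4 CPM (UMI counts of a gene scaled to a total of 1000000 over the summed cells) in CD replicate 1, WT replicate 1 and WT replicate 2. Just inside it, cells with 3 markers held Spp1 at 131.4, 105.5 and 116.4 CPM in the same order, an order kept in all lists of 3 values that follow. Otx1, which the rule did not use, stood at 48.8, 47.1 and 46.2 CPM with 2 markers and at 88.4, 70.3 and 65.8 with 3.

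The share of otic cells that met the rule was 21.9% in CD replicate 1 (95% exact interval 20.3 to 23.5), 22.3% in WT replicate 1 (20.7 to 24.1) and 16.3% in WT replicate 2 (15.1 to 17.5). The CD share lay between the WT shares with the rule as given. The difference of CD from the WT mean was 2.56 percentage points, against an SD of 4.29 between the WT libraries, and 1 library against 2 cannot give a permutation p below 0.333. When every cell was first thinned to 5000 UMIs, to give all cells equal depth, the shares were 7.57%, 8.23% and 5.86% of the otic cells that remained. The gate and the rule were applied again after thinning, which left 78, 75 and 105 cells that met the rule. The tests in thinned cells given below rest on these fewer cells and counts. A gene that misses the threshold there cannot be told apart from one that lacks counts. With at least 4 markers the CD share was above both WT shares, at 11.0%, 9.84% and 7.15%. It was also above both with an otic gate of at least 4 UMIs, at 27.2%, 25.9% and 19.8%. The intervals cover counting error only.

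**Figure D1:**
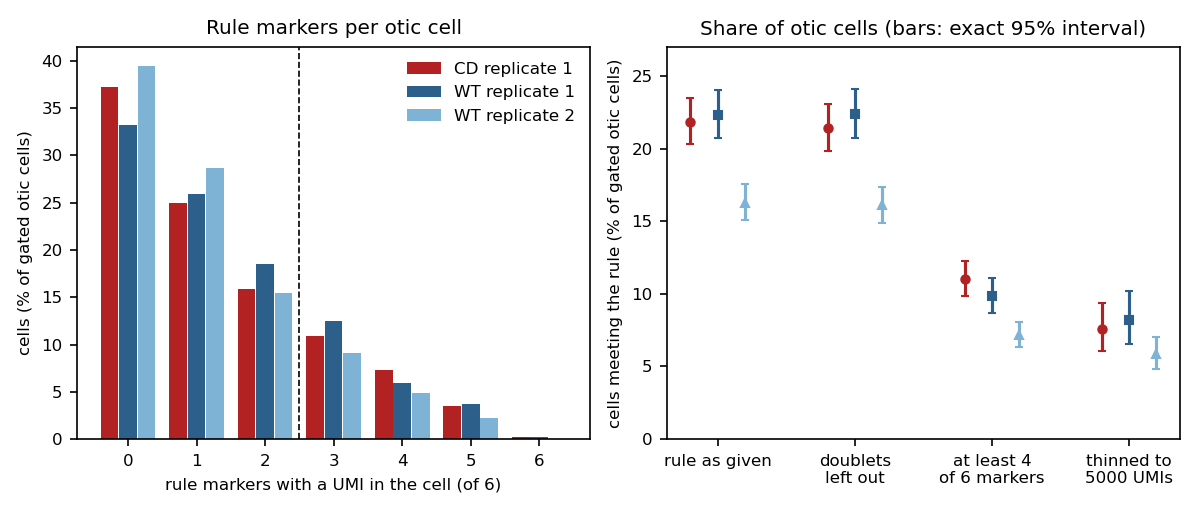
Left, percent of gated otic cells in each library by the number of rule markers with a UMI (0 to 6); the dashed line marks the threshold of 3. Right, percent of gated otic cells meeting the rule under 4 settings, with exact 95% binomial intervals; in each setting WT replicate 2 has the lowest point, and with the rule as given CD replicate 1 (21.9%) lies between WT replicate 1 (22.3%) and WT replicate 2 (16.3%).

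The levels of the markers themselves are a description of what the rule chose. Spp1 was at 233, 158 and 201 CPM in the marker-positive cells and at 23.7, 20.7 and 15.0 in the other otic cells. Irx1 was at 148, 138 and 146 CPM against 25.8, 34.1 and 33.6. Adamts9 was at 99.2, 75.8 and 76.3 CPM against 10.4, 8.78 and 8.44. Irx1 and Adamts9 were the most widely shared in each library, with an Irx1 UMI in 92.4%, 96.9% and 91.2% of the marker-positive cells and an Adamts9 UMI in 85.6%, 82.5% and 72.7%. An Spp1 UMI was seen in 73.8%, 66.1% and 65.8% and an Abcg1 UMI in 73.2%, 64.1% and 69.9%. Abcg1 was at 57.1, 34.0 and 61.6 CPM, Aldh1a2 at 32.0, 29.3 and 46.7 and Lhx1 at 12.9, 24.3 and 34.0. An Aldh1a2 UMI was seen in 27.5%, 22.5% and 30.1% of the cells and an Lhx1 UMI in 15.6%, 30.4% and 28.5%. WT replicate 1 was the lowest library for Spp1, Abcg1 and Aldh1a2, and CD replicate 1 was the lowest for Lhx1.

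Several of the markers are not restricted to the ear. After thinning to 5000 UMIs, Irx1 was detected in 32.0%, 25.8% and 29.5% of mesenchymal cells of the same libraries, against 51.8%, 49.8% and 52.4% of the marker-positive otic cells. Abcg1 was detected in 14.1%, 11.8% and 13.9% of endothelial cells and Adamts9 in 12.6%, 7.27% and 7.18%. Aldh1a2 and Lhx1 were each detected in at most 0.957% of the cells of either type. The marker-positive cells had Epcam at 666, 671 and 591 CPM, close to the 719, 747 and 668 CPM of the other otic cells.

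The name under which these cells were grouped joins Aldh1a2 and Lhx1, but few of the cells held transcripts of both. Of the 1678 cells, 423 (25.2%) had an Aldh1a2 UMI and no Lhx1 UMI, 390 (23.2%) had Lhx1 and no Aldh1a2, 26 (1.55%) had both and 839 (50.0%) had neither. A rule asking for 3 of 6 markers makes its own members depend on each other, so the pair was also read in all otic cells. There, Lhx1 was detected in 6.99%, 4.62% and 1.83% of cells with an Aldh1a2 UMI and in 5.06%, 10.1% and 7.42% of cells without. The pair was thus scarcer together than apart in both WT libraries, and in CD replicate 1 the order was the reverse on 13 cells with both. In otic cells thinned to 5000 UMIs, 3, 2 and 0 cells held both transcripts. There, Lhx1 was detected in 4.76%, 3.70% and 0% of cells with Aldh1a2 and in 1.76%, 4.67% and 3.55% of cells without. These cells are too few to show whether the pair is scarcer together at equal depth. In the thinned cells Irx1 was detected in 47.6%, 33.3% and 35.3% of the 63, 54 and 102 cells with Aldh1a2. It was detected in 85.0%, 52.4% and 70.0% of the 20, 42 and 60 cells with Lhx1. Cells without the respective gene held Irx1 in 17.4% to 21.5%. All 3 genes are rule markers chosen with these data known, so this describes the choice and is no added support. Few of the cells thus held both transcripts of the name. The cells are therefore called marker-positive here, and the subsets with only Aldh1a2 or only Lhx1 are described apart.

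The Aldh1a2 subset and the Lhx1 subset differed in single genes of several kinds. Among 6065 genes with at least 20 CPM, 27 were at least 2-fold higher in the Aldh1a2 subset in each of the 3 libraries and 44 were at least 2-fold higher in the Lhx1 subset. The subsets were defined by transcripts in the same cells, so these contrasts were not tested. They comprised 142, 114 and 167 cells with Aldh1a2 and 75, 157 and 158 with Lhx1.

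The genes higher in the Aldh1a2 subset included semaphorins and a semaphorin receptor. Sema3e, a secreted semaphorin, was at 81.8, 41.0 and 77.8 CPM with Aldh1a2 and at 0.9, 2.6 and 4.6 with Lhx1. Plxna4, a semaphorin receptor, was at 80.2, 90.5 and 110.6 CPM against 21.6, 11.0 and 19.3. The values of each gene did not overlap between the subsets, which is largely fixed because both genes were named for their ratio. Neto1, a transmembrane accessory protein of glutamate receptors, was at 30.6, 21.6 and 21.2 CPM against 0.4, 0.5 and 0.0. Fn1, which encodes fibronectin, was at 658.5, 364.8 and 627.1 CPM against 143.7, 105.1 and 120.6. Sema3a, the guidance ligand Slit3, the adhesion genes Flrt2 and Alcam, the homeobox gene Meis1, Cited1, Car4 and the endothelin receptor gene Ednra were also among the 27 genes. Of 13 measured genes of a guidance and adhesion list, 4 were at least 2-fold higher with Aldh1a2 and 0 with Lhx1, while 7 and 5 were higher by some amount in all 3 libraries. The median log2 ratio of (CPM + 1) was 0.43 for that list and -0.01 over the 6065 genes. Nrp2, a co-receptor of semaphorins, was at 27.6, 19.1 and 16.5 CPM against 21.6, 17.1 and 15.5.

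The genes higher in the Lhx1 subset included the homeobox genes Gsc, Otx1, Otx2, Emx2 and Irx3 and a pair of retinoic acid-degrading enzymes. Homeobox genes were not all on this side: besides Meis1, the gate gene Hmx2 was at 222, 198 and 236 CPM with Aldh1a2 and at 64.0, 52.7 and 70.2 with Lhx1. Gsc, the homeobox gene goosecoid, was at 44.6, 48.7 and 69.9 CPM with Lhx1 and at 1.3, 5.4 and 2.8 with Aldh1a2. Cyp26a1, whose promoter is printed above, was at 91.3, 86.6 and 85.4 CPM with Lhx1 and at 15.8, 8.0 and 6.7 with Aldh1a2. Cyp26c1, a second degrading enzyme, was at 22.5, 22.5 and 33.2 CPM against 2.1, 0.6 and 1.8. The other degrading enzyme, Cyp26b1, was at 1.3, 5.8 and 5.6 CPM with Lhx1, 4.3, 4.3 and 5.7 with Aldh1a2 and 8.0, 6.9 and 7.7 with neither. Aldh1a2 itself defined the subsets, and Aldh1a3, which also makes retinoic acid, was at 11.7, 15.0 and 21.0 CPM with Lhx1 and at 5.9, 11.7 and 7.8 with Aldh1a2. Otx1 was at 96.1, 89.2 and 79.3 CPM with Lhx1 and at 19.8, 21.6 and 12.4 with Aldh1a2. Otx2 was at 27.7, 77.4 and 73.7 CPM with Lhx1 and at 3.8, 12.0 and 9.3 with Aldh1a2, so that its CD value with Lhx1 lay below both WT values. Emx2, Irx3, the Eyes absent family gene Eya4, the Wnt antagonist gene Sfrp1 and Cnmd were also among the 44 genes. Sfrp1 was at 355.2, 643.6 and 658.4 CPM with Lhx1 and at 70.2, 145.4 and 119.7 with Aldh1a2.

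The cells with neither transcript were nearer to the Lhx1 subset for Otx1, Gsc and Cyp26a1, but not for every gene. They held Otx1 at 117.5, 86.3 and 83.2 CPM, Gsc at 31.2, 31.9 and 44.4 and Cyp26a1 at 70.8, 49.8 and 57.9. Their Sparcl1, at 19.3, 27.4 and 27.8 CPM, was nearer to the Aldh1a2 subset (15.3, 14.5 and 12.9) than to the Lhx1 subset (46.7, 58.8 and 87.2). Sema3e was at 14.6, 5.9 and 14.7 CPM in the cells with neither, between the other subsets. Their median depth, 28240.5, 32984.5 and 24487 UMIs, was above that of the Aldh1a2 subset, 23775, 25767 and 19171.

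**Figure D2:**
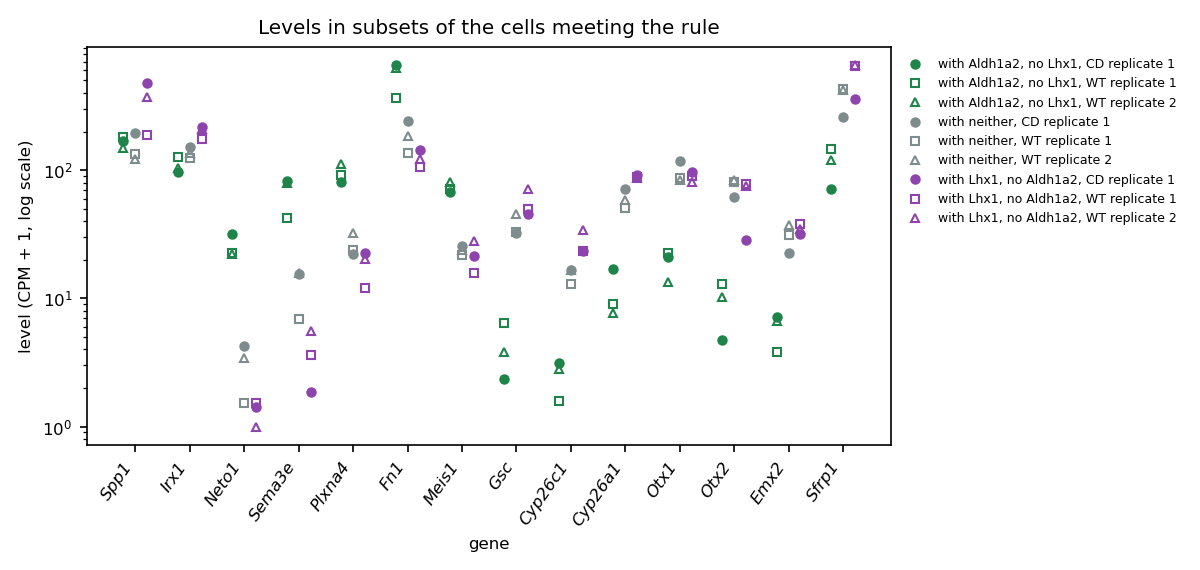
Levels (CPM + 1, log scale) of 14 genes in the marker-positive cells with an Aldh1a2 UMI and no Lhx1 UMI, with neither, and with an Lhx1 UMI and no Aldh1a2 UMI; filled circles are CD replicate 1, open squares WT replicate 1 and open triangles WT replicate 2. Neto1, Sema3e, Plxna4, Fn1 and Meis1 are higher in the Aldh1a2 subset, and Gsc, Cyp26c1, Cyp26a1, Otx1, Otx2, Emx2 and Sfrp1 in the Lhx1 subset, in every library.

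The composition of the marker-positive cells differed between the libraries. The Lhx1 subset made up 13.3% of them in CD replicate 1 and 28.9% and 27.7% in the WT libraries. The Aldh1a2 subset made up 25.2%, 21.0% and 29.2%, with the CD value inside the WT range. Cells with neither made up 59.2%, 48.6% and 42.2%. Among all otic cells, 134 of 2579 in CD had an Lhx1 UMI, against 236 of 2430 and 245 of 3509 in WT. Lhx1 is a gene of the rule, so these values were not tested, and every CD to WT comparison over all marker-positive cells includes this difference in composition.

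Set against the other otic cells, the marker-positive cells summed together were high in genes of a posterolateral list. They were low in genes of dorsal, medial and lateral lists. The Aldh1a2 subset did not share the high level for every posterolateral gene, as given below. It also held more of some dorsal genes than the Lhx1 subset did. Of 4 measured genes of the dorsal and endolymphatic list, 3 were higher with Aldh1a2 in all 3 libraries and 0 with Lhx1. The median log2 ratio was 0.79, against -0.01 over the 6065 genes. Bmp4 was at 142, 73.1 and 88.4 CPM with Aldh1a2 and at 51.9, 27.4 and 36.7 with Lhx1. Of 6270 genes outside the rule with at least 20 CPM, 20 (0.319%) were at least 2-fold higher in all 3 libraries and 17 (0.271%) were at least 2-fold lower. The ratios were taken within each library and were not tested, because the cells were chosen by expression. The posterolateral list had 7 measured genes, of which 3 were 2-fold higher and 0 lower. The dorsal and endolymphatic list had 9 measured genes, of which 0 were higher and 5 lower. The medians of the log2 ratio of (CPM + 1) were 1.25 and -1.10 for the lists and 0.04 over all measured genes. The medial list had 5 measured genes, of which 0 were 2-fold higher and 3 lower, with a median of -1.39. The lateral list had 4 measured genes, of which 0 were 2-fold higher and 2 lower, with a median of -0.66. By some amount, 1 lateral gene was higher and 3 were lower in all 3 libraries. Some genes are in more than 1 of these lists.

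Otx1 was at 91.5, 74.2 and 63.0 CPM in the marker-positive cells and at 17.1, 18.4 and 22.6 in the other otic cells. Gsc was at 26.2, 31.6 and 40.0 CPM against 5.34, 8.84 and 13.2. Tbx1, a T-box gene needed for otic patterning, was at 236, 235 and 238 CPM against 83.1, 89.8 and 103. The values of the groups of cells did not overlap in these 3 genes, but they were named for their ratio, so this is no added support. Otx2 was higher in each library, at 42.4, 65.7 and 60.4 CPM against 11.3, 25.1 and 40.7, but missed 2-fold in WT replicate 2. Tbx3 was at 91.9, 101 and 113 CPM against 55.4, 55.2 and 62.8. Tbx2 was slightly lower in each library, and Lmx1a had no common direction, at 104, 108 and 112 CPM against 118, 105 and 92.4. The Aldh1a2 subset alone was not high in all of these genes. It held Gsc at 1.3, 5.4 and 2.8 CPM and Otx2 at 3.8, 12.0 and 9.3, below the other otic cells in each library. Its Otx1, at 19.8, 21.6 and 12.4 CPM, had no common direction against them. Its Tbx1 was higher, at 227, 251 and 221 CPM, as was Tbx3 at 157, 169 and 147.

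Ntrk2, Sparcl1, Lrp2, Irx2, Sulf1 and Dcx were also among the 20 higher genes. Ntrk2, the receptor of brain-derived neurotrophic factor, had the largest minimum ratio: 41.3, 29.1 and 43.8 CPM against 5.68, 5.03 and 7.11, which is 7.26-, 5.78- and 6.15-fold. Sparcl1, a secreted matricellular protein, was at 22.7, 34.8 and 40.1 CPM against 4.13, 7.36 and 5.65. Lrp2, the endocytic receptor megalin, was at 42.3, 32.7 and 33.4 CPM against 9.38, 10.3 and 10.1. Each of these was higher in every library by more than the range within either set of cells. The genes were named for their ratio, so this follows largely from the choice. Irx2, a neighbour of Irx1 in the Iroquois family, was at 68.0, 61.4 and 64.5 CPM against 15.3, 18.5 and 16.3. Sulf1, which trims sulphates from heparan sulphate, was at 234, 244 and 239 CPM against 106, 99.2 and 113. Dcx, a microtubule protein of immature neurons, was at 52.7, 33.4 and 45.5 CPM against 18.3, 12.1 and 16.7, and the neuronal list summed to 596, 391.7 and 798 CPM against 419, 330 and 419; the part of neuronal transcripts in the Dcx value was not tested.

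Among the lower genes were dorsal transcription factors, Wnt targets and a source of retinaldehyde. Gbx2, a homeobox gene of the endolymphatic domain, was at 12.4, 13.2 and 7.75 CPM against 61.7, 45.5 and 30.9. Msx2, a homeobox gene, was at 16.9, 12.1 and 10.5 CPM against 63.3, 38.1 and 37.9. Wnt6, a Wnt ligand, was at 17.1, 14.4 and 17.6 CPM against 80.5, 66.6 and 52.9. For each of these genes, all values of the marker-positive cells lay below all values of the others. They were named for their low ratio, which largely fixes this. Of 8 measured Wnt target genes, 3 were at least 2-fold lower, 0 were higher, and 7 were lower by some amount in all 3 libraries. Apcdd1, a Wnt inhibitor and target, was at 9.10, 8.11 and 5.69 CPM against 38.9, 28.6 and 23.1. Sp5, a transcription factor induced by Wnt signalling, was at 7.45, 10.0 and 4.80 CPM against 33.5, 34.0 and 23.3. Nrp2, a semaphorin co-receptor, was at 33.3, 16.0 and 24.0 CPM against 153, 64.4 and 69.2.

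The retinoic acid genes had no common direction against the other otic cells. Rdh10 was at 13.7, 22.9 and 22.5 CPM in the marker-positive cells against 71.9, 69.1 and 93.7, the lower gene of the list. Aldh1a1 was at 3.05, 6.38 and 5.97 CPM against 13.6, 19.0 and 12.4, and Aldh1a3 at 8.51, 13.3 and 15.9 against 18.5, 18.1 and 26.3. Aldh1a2 is the marker that the rule used, so its opposite pattern was fixed by the choice of cells. On the side of degradation, Cyp26a1 was at 60.0, 52.8 and 51.3 CPM against 8.82, 11.6 and 13.5, which is 6.81-, 4.53- and 3.81-fold. Cyp26c1 was at 13.3, 13.0 and 16.6 CPM against 1.47, 2.09 and 3.36, while Cyp26b1 was at 6.04, 6.01 and 6.72 against 12.9, 9.04 and 7.18. The Aldh1a2 subset alone did not share the excess of Cyp26a1 and Cyp26c1 in the WT libraries. It held Cyp26a1 at 15.8, 8.0 and 6.7 CPM and Cyp26c1 at 2.1, 0.6 and 1.8. Both lay below the other otic cells in each WT library and above them in CD. The retinoic acid-binding gene Crabp2 was at 617, 644 and 537 CPM against 467, 458 and 407, and Crabp1 at 71.5, 45.0 and 49.8 against 159, 127 and 85.9. The receptor genes were near the level of the other otic cells, with Rara at 24.5, 23.0 and 23.9 CPM against 21.4, 23.1 and 22.1. Of the 7 genes of the list with at least 20 CPM, 1 was 2-fold higher, 1 was 2-fold lower and the median log2 ratio was 0.10.

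**Figure D3:**
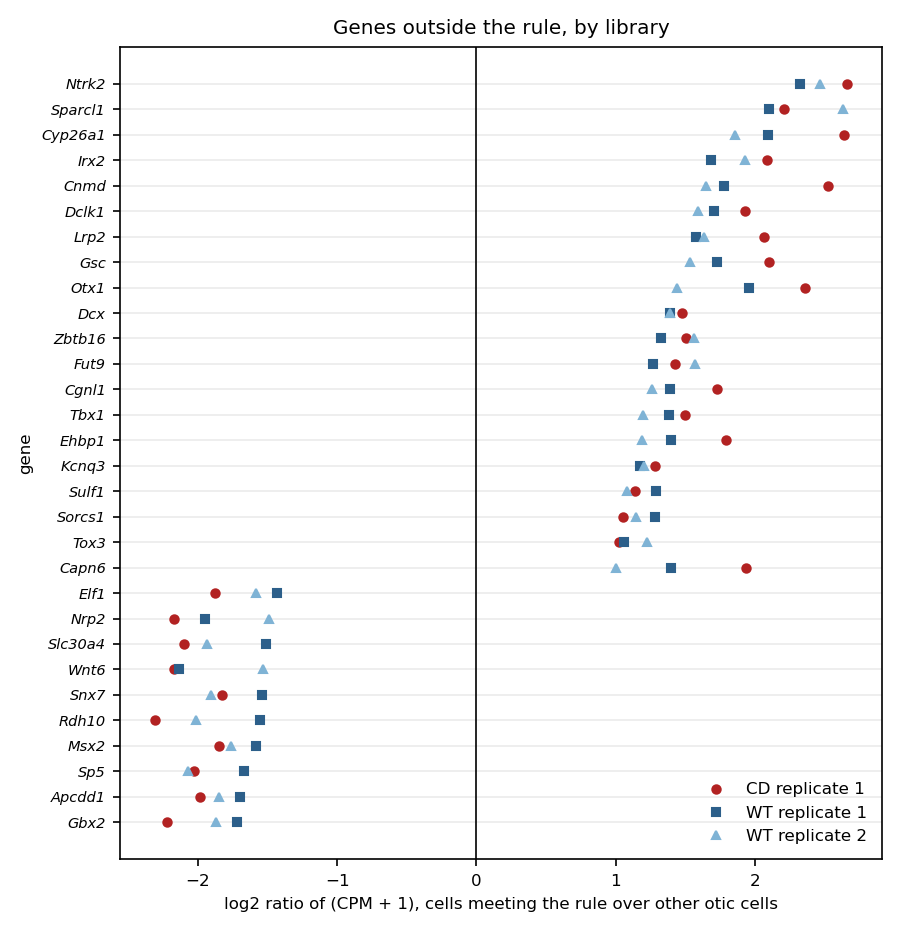
Log2 ratio of (CPM + 1) in the marker-positive cells over the other otic cells, for the 20 genes that were at least 2-fold higher and the 10 with the largest deficits in all 3 libraries; 1 point per library. Ntrk2, Sparcl1 and Cyp26a1 head the higher genes and Gbx2, Apcdd1 and Sp5 the lower ones, and every point of a gene lies on the same side of 0.

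Other sets of otic cells, each defined by a pair of transcripts, overlapped the marker-positive cells to different degrees. Cells with both Sema3e and Plxna4 were 19.1%, 16.2% and 20.7% of the marker-positive cells and 10.4%, 10.3% and 10.2% of the others. Cells with both Rdh10 and Bmp3 were 3.37%, 3.50% and 3.50% of the marker-positive cells and 14.3%, 9.70% and 10.2% of the others. Cells with both Gbx2 and Pou3f3 were 6.03%, 6.81% and 2.10% against 14.1%, 13.0% and 6.16%. After thinning to 5000 UMIs, the Sema3e and Plxna4 pair was seen in 6.05%, 3.14% and 6.15% of the marker-positive cells against 2.23%, 2.09% and 2.68%. Tbx1 was at 172, 163 and 178 CPM in the other otic cells with Sema3e and Plxna4, nearer to the marker-positive level than in those with Rdh10 and Bmp3, at 23.3, 44.8 and 34.9. Cyp26a1 was at 1.26 to 2.76 CPM in the Sema3e and Plxna4 cells.

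Sox9 transcripts were measured to see how the genotype label bears on the gene itself, although 3' tags do not read the Y440X position and cannot check the label. Sox9 was at 698, 425 and 355 CPM in the marker-positive cells, with CD above both WT libraries. Its log2 fold change of 0.79 (SE 0.16) missed the threshold in edgeR's quasi-likelihood test (adjusted p = 0.186), and it passed in DESeq2, with no gene filter, with cells of at least 4 markers, in the thinned cells and in the Aldh1a2 subset. Sox10, a SoxE gene of otic epithelium and neural crest, was at 83.7, 125 and 147 CPM (a log2 fold change of -0.74 with SE 0.17 and an adjusted p of 0.291 in edgeR), and passed with no gene filter and with at least 4 markers. In the thinned cells its direction turned, at 0.21 (adjusted p = 0.981 in edgeR). Sox8 was at 3.87, 7.16 and 6.03 CPM and Sox2, a gene of the prosensory domain, at 101, 93.9 and 67.6, and neither passed. The log2 fold change of Sox2 was 0.27, and -0.52 in the thinned cells. In the other otic cells Sox9 (0.84) and Sox8 (-1.30) passed in edgeR, with adjusted p = 0.0317 and 0.0407. Sox10 (-0.83) and Sox2 (0.05) did not pass there.

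Between genotypes, the otoconial protein gene Oc90 and Cnmd were among the genes lower in CD. Of 14611 genes tested with edgeR's quasi-likelihood test, 5 rose and 9 fell in CD, which is 0.0958% of the genes. DESeq2 called 21 genes, of which 12 were among these 14. The test has 1 residual degree of freedom, from the WT pair, so the spread of CD is taken to equal that of WT. With called doublets left out, edgeR called 0 genes (425 of 14440 at an unadjusted p under 0.05), although all 14 kept their direction, and without the cells holding Lhx1 it called 1, Cnmd.

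Oc90, the main protein of otoconia, was at 106, 712 and 1522 CPM (a log2 fold change of -3.43 with SE 0.37, adjusted p = 0.00405 in edgeR). The WT libraries differed by more than 2-fold, and CD lay below both; the adjusted p in DESeq2 was 0.0581. In cells outside the otic gate, Oc90 stood at 10.1, 65.6 and 212 CPM, in the same order of libraries, and the part of free RNA in the levels was not tested. Cnmd, which encodes the cartilage glycoprotein chondromodulin, was at 43.3, 189 and 227 CPM (a log2 fold change of -2.31 with SE 0.19, adjusted p = 0.00114 in edgeR). It was seen in 40.2% of the CD cells and in 80.8% and 74.3% of the WT cells. The fall of Cnmd was also found within each subset, at -1.78 with Aldh1a2 alone and -2.07 with Lhx1 alone on the log2 scale.

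Among the other genes that fell were a collagen gene and a Wnt ligand. Col9a3, a chain of type IX collagen, was at 39.5, 83.5 and 112 CPM (log2 fold change -1.35). CD was the lowest of the 3 libraries. Fxyd3, a regulator of the sodium pump, was at 3.29, 15.2 and 22.6 CPM, and Wnt7b, a Wnt ligand, at 12.3, 27.1 and 31.3. Wnt7b passed in 5 of 12 alternatives run on the marker-positive cells. Cuedc2 was at 179, 371 and 500 CPM and was detected in 94.9% of the CD cells and in 99.4% and 98.8% of the WT cells. Cldn22 and Bricd5, both low, fell by 3.36 and 2.15 on the log2 scale.

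Of the 5 genes that rose, Runx1t1 and Hs3st6 were spread over many cells. Hs3st6, a heparan sulphate sulphotransferase, was at 57.5, 20.9 and 24.4 CPM (a log2 fold change of 1.30 with SE 0.17, adjusted p = 0.015 in edgeR) and was detected in 61.9%, 35.2% and 36.1% of the cells. Runx1t1, a transcriptional corepressor, was at 47.0, 19.4 and 22.9 CPM (a log2 fold change of 1.11 with SE 0.17, adjusted p = 0.042 in edgeR), and its adjusted p was 0.0677 in DESeq2, 0.0585 in edgeR with RLE size factors and 0.136 in the Aldh1a2 subset. For both, the CD value lay above both WT values. Dcn, the mesenchymal proteoglycan decorin, was at 28.1, 4.13 and 8.50 CPM, and the mesenchymal list summed to 184, 95.9 and 120 CPM in the same cells, with 8 of its 11 tested genes above 0 and Dcn the only call. The mesenchymal genes Prrx1 and Twist1, which the gate limits, were at 2.64, 1.10 and 6.38 CPM and at 2.58, 1.31 and 4.46, and the part of mesenchymal transcripts in the Dcn value was not tested. Sst, somatostatin, passed on 1 cell: 208 of its 211 UMIs in CD came from a single barcode. The homeobox gene Hmx1 had 188 UMIs in 20 CD cells, 156 of them in 5 cells, and its direction turned without the cells holding neuronal, endothelial or macrophage transcripts (log2 fold change -0.72).

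**Figure D4:**
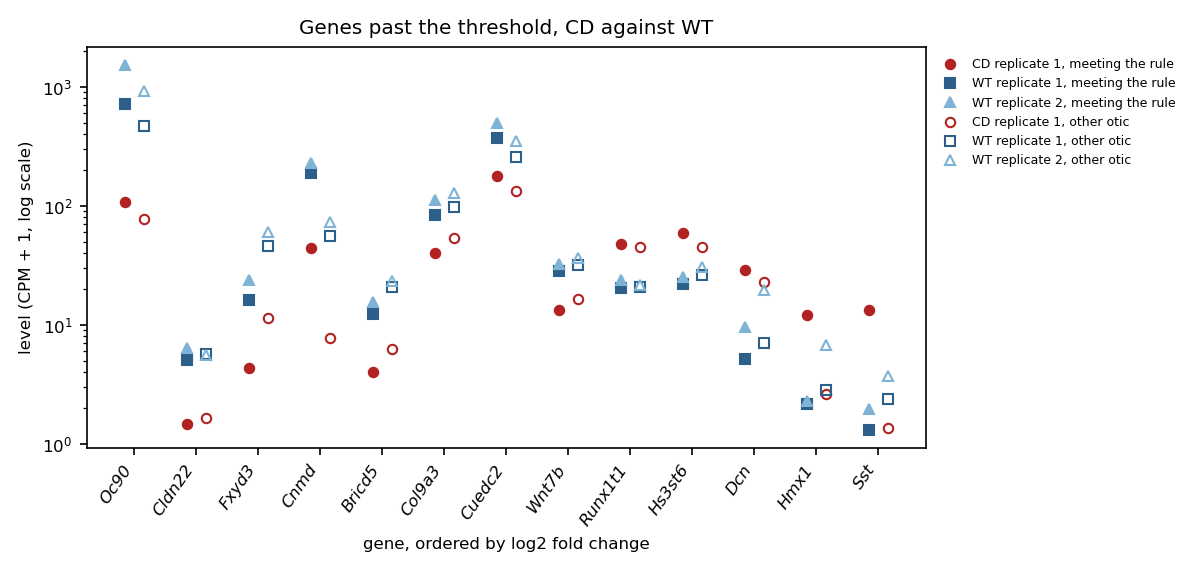
Levels (CPM + 1, log scale) of 13 of the 14 genes past the threshold between CD and WT in the marker-positive cells (filled) and in the other otic cells (open), 1 point per library, ordered by log2 fold change. Red points (CD replicate 1) lie below both blue points for Oc90 to Wnt7b and above them for Runx1t1 to Sst in the marker-positive cells; for Hmx1 and Sst the other otic cells do not repeat that order.

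The pathway lists are described between the genotypes by their counts and medians, beside the 0.0958% of all genes that passed; in lists of this size that share is below 1 gene, so a count of 0 is near the background. Of 18 retinoic acid genes tested, 0 rose and 0 fell, with 6 above 0 and a median log2 fold change of -0.17 against 0.00 over all genes. Within that list the receptor gene Rxrg was at 6.81, 16.6 and 19.7 CPM and Cyp26a1 at 60.0, 52.8 and 51.3. Of 16 Wnt target genes tested, 0 rose and 0 fell, 12 were above 0, and the median was 0.30. Of 11 cartilage matrix genes known as SOX9 targets, 2 fell (Cnmd and Col9a3), 0 rose, and the median was -0.69; Col2a1, the type II collagen gene, was at 701, 555 and 657 CPM. Of 8 otoconial and acellular membrane genes, 1 fell (Oc90), 0 rose, and the median was -0.51. The 7 posterolateral genes gave 0 calls and a median of -0.12, and Otx2 was at 42.4, 65.7 and 60.4 CPM. Haemoglobin transcripts, which come from red cells, summed to 8337, 4298 and 6606 CPM in the marker-positive cells, and 7 of the 7 tested were above 0 with 0 passing.

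The genotype difference was then compared between the marker-positive and the other otic cells. The sets of cells come from the same 3 libraries, so their values are given side by side. Of the 14 genes past the threshold in the marker-positive cells, 12 had the same direction in the other otic cells. Of the 14, 11 also passed in edgeR in the other otic cells, where 57 genes passed. Most of these calls were thus not particular to the marker-positive cells. Hs3st6 did not pass in the others (log2 fold change 0.61, adjusted p = 0.213 in edgeR). Oc90 was at 77.2, 470 and 923 CPM in the other otic cells and Hs3st6 at 43.7, 25.2 and 29.8, with CD on the same side of both WT libraries as in the marker-positive cells. In the test of the difference itself, with the library as a block, 64 of 16161 genes passed (0.396%), 37 with a higher CD to WT ratio in the marker-positive cells and 27 with a lower one. DESeq2 called 3, Cnmd, Hmx1 and Sst. Cnmd fell by 2.31 in the marker-positive cells and by 3.29 in the others on the log2 scale, and the difference of 0.98 passed (edgeR adjusted p = 0.000217). It no longer passed with at least 2 markers (adjusted p = 0.093) or in thinned cells, where it was 0.33 (adjusted p = 0.998).

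Of the 7 posterolateral genes 2 passed with a higher ratio in the marker-positive cells, and of the 18 retinoic acid genes 1 did, beside 0.396% of all genes in either direction. These were Otx1, Otx2 and Cyp26a1, with differences of 0.69, 0.95 and 0.73 on the log2 scale, and they were picked from the lists after their values were seen. Of 8 alternatives, Otx1 passed in 3, Otx2 in 2 and Cyp26a1 in 5, and none of them passed in DESeq2 or in thinned cells. For Otx1 the CD and WT values were 91.5, 74.2 and 63.0 CPM in the marker-positive cells and 17.1, 18.4 and 22.6 in the others. Otx2 was at 11.3, 25.1 and 40.7 CPM in the others, with CD the lowest, and CD was also the lowest in the marker-positive cells. The members of a list of endothelial genes that passed were all higher, 3 of 13, and the macrophage genes that passed were all lower, 4 of 12. The endothelial list summed to 66.7, 29.5 and 66.9 CPM and the macrophage list to 2.93, 5.23 and 88.6 in the marker-positive cells, and cells with at least 3 UMIs of 4 genes of either list numbered 8 or fewer in each library.

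**Figure D5:**
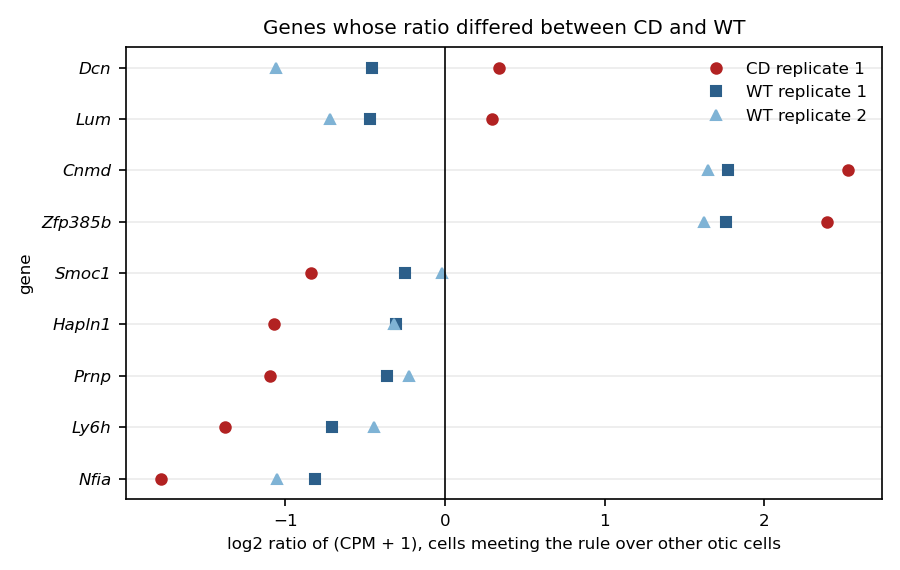
Log2 ratio of (CPM + 1) in the marker-positive cells over the other otic cells, 1 point per library, for 9 genes named by the rule whose genotype difference differed between the sets of cells. The red point (CD replicate 1) lies to the right of both blue points for Dcn, Lum, Cnmd and Zfp385b and to the left for Smoc1, Hapln1, Prnp, Ly6h and Nfia.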

How the data were processed

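The deposited values are UMI counts of each gene in each barcode, unnormalised and made with Cell Ranger 6.0 on build mm39 per the submitters' processing notes (6.0.0 per the file headers). Libraries were made with a droplet 3' kit per the labels' protocols. Counts were summed per library over the marker-positive and over the other otic cells, since cells are not replicates. Sums were tested with edgeR 4.0.16 in R 4.3.3 (TMM, filterByExpr, quasi-likelihood test, Benjamini-Hochberg over all genes tested, threshold 0.05); the comparison of the genotype difference between sets of cells had the library as a block. DESeq2 1.42.0 was an alternative. The scripts were tested on simulated data. SE was derived from the fold change and its F statistic. Levels are CPM without TMM, printed folds are ratios of CPM, and only log2 ratios used a pseudocount of 1 CPM. Doublets were called with Scrublet in scanpy 1.11.5 at an expected 5%. Whether the WT pools came from separate litters is not stated in the labels, so the p-values reflect a spread that may be technical.

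The cells, the markers, the 41 gene lists and the tests were chosen with earlier results of these data known. Rule and gate genes are given as values and left out of counts of calls. Named were the SOX genes and up to 10 genes each way between genotypes (5 for the difference between sets of cells), whose mean reached 10 CPM and whose change exceeded the gap between the WT libraries. Where fewer than 5 passed in a direction, those of smallest p were named as values only. Also named were the 20 highest and 10 lowest genes against the other otic cells, and genes of the lists. The genes of the Aldh1a2 and Lhx1 subsets were chosen after their values were seen. Some genes that the rule would name are not reported here.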

Additional observations from a re-analysis of the deposited data

Results flagged for a closer look

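In 9 named genes the CD to WT difference itself differed between the marker-positive and the other otic cells by edgeR's quasi-likelihood test with the library as a block. It was more positive in the marker-positive cells for Dcn (by 1.30 on the log2 scale), Lum (1.03), Cnmd (0.98) and Zfp385b (0.79). It was more negative for Nfia (-0.95), Ly6h (-0.84), Prnp (-0.83), Hapln1 (-0.80) and Smoc1 (-0.77). Lumican (Lum) was at 16.0, 4.60 and 9.46 CPM in the marker-positive cells of CD replicate 1, WT replicate 1 and WT replicate 2, and at 12.8, 6.76 and 16.2 in the others, and like Dcn it is a mesenchymal gene. Zfp385b was at 25.8, 20.3 and 17.0 CPM against 4.11, 5.29 and 4.86. Hapln1, a link protein of the matrix, was at 8.10, 7.90 and 7.61 CPM in the marker-positive cells and at 18.1, 10.0 and 9.77 in the others, so its difference lay in the other otic cells; 5 cells held 69 of its 138 UMIs in the marker-positive cells of CD. Smoc1, a secreted calcium-binding protein, was at 6.10, 14.5 and 14.2 CPM against 11.7, 17.4 and 14.4, and the CD value was the lowest in both sets. DESeq2 called 1 of the 9 genes, Cnmd. Of 8 alternatives, Dcn, Lum and Cnmd passed in 6, Nfia in 5, Prnp in 4, Hapln1 in 3 and Zfp385b, Ly6h and Smoc1 in 2. Some of the 8 used no gene-specific spread, as given below. None of the 9 passed in thinned cells, where 78, 75 and 105 cells met the rule and a miss cannot be told apart from a lack of counts.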

How the results depend on the processing

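The count of 14 genes between genotypes moved with most settings: 8 with RLE size factors, 136 with no gene filter, 0 with doublets left out, 97 with at least 4 markers, and 25 with equal cell numbers. It was 21 in DESeq2, 14 with at least 2 markers and 19 in thinned cells. Of settings added after seeing the data, the other otic cells gave 57, the Aldh1a2 subset 24, the Lhx1 subset 48, cells without Lhx1 1, and cells without other cell types' transcripts 18. The borrowed spread moved with them: its median prior degrees of freedom were 10.3 as reported, 4.81 with doublets left out and 28.7 with at least 4 markers. They were infinite with no gene filter and in thinned cells, so those fits used no gene-specific spread. All 14 genes passed with no gene filter, and both settings are among the 12 alternatives below. Why the count moved was not tested. Of 12 alternatives run on the marker-positive cells, Cnmd passed in 11, Hs3st6 in 10, Oc90, Fxyd3 and Cuedc2 in 9, Col9a3, Hmx1, Sst and Bricd5 in 7, Runx1t1, Cldn22 and Dcn in 6 and Wnt7b in 5.

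The count of 64 genes whose difference differed became 27 with RLE size factors, 147 with no gene filter, 3 in DESeq2, 22 with doublets left out, 168 with at least 4 markers, 34 with at least 2, and 7 in thinned cells. Directions turned for Hmx1 (-0.72 without other cell types' transcripts, -1.30 in the other otic cells) and Sst (-2.62 in the other otic cells, -1.91 without Lhx1); in thinned cells Sox10 turned to 0.21 and Sox2 to -0.52, neither passing in either setting. The share difference stayed between 0.53 and 4.38 percentage points. The counts of 20 higher and 17 lower genes stayed at 20 to 28 and 17 to 21. Leaving out a WT library left no residual degrees of freedom, so only values were computed. No paired analysis was possible because the CD and WT groups share only replicate number 1.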

Other observations

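The cell cycle lists did not set the marker-positive cells apart: of 18 G2/M genes measured, 7 were higher and 6 lower than in the other otic cells in all 3 libraries, and the median log2 ratio of (CPM + 1) was 0.00. Of 18 S phase genes, 2 were higher and 9 lower, with a median of -0.05. Of 89 ribosomal protein genes measured, 3 were higher and 74 lower in all 3 libraries, with a median of -0.09, against 2815 higher and 1516 lower of 6270 genes in all. Between genotypes, 9 of 93 ribosomal protein genes and 12 of 13 mitochondrial genes were above 0 in CD, and 0 of either passed.

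Of 11 measured genes of secreted matrix and proteases, 8 were higher in the marker-positive cells in all 3 libraries and 0 were lower, although 0 reached 2-fold, and the list summed to 1750, 1351 and 1607 CPM against 1158, 1107 and 1078. Of 5 measured hedgehog targets, 4 were higher, 1 was lower and 0 reached 2-fold.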
